A study of Danio rerio with 15 samples.

Results

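The comparison set 3 sibling libraries against 3 wildtype libraries, all from zebrafish embryos that overexpressed constitutively active Stat3 (CA-Stat3), and asked how far the cells of sf3b1 sibling embryos differ from wildtype cells. The 6 libraries were chosen by their titles, out of 15 in the series. Each held poly(A) RNA of kdrl-positive cells, taken at 28 hours post fertilization. The other 9 libraries were siblings and wildtypes with overexpressed wildtype Stat3 (WT-Stat3), 2 of each, and sf3b1 mutants with either construct. The labels call the sibling group siblings and do not give their sf3b1 alleles, so the group may hold heterozygotes, wildtypes or both. They also do not give the mutant allele, the promoter that drives Stat3, the number of embryos pooled in a library, or whether replicates came from separate clutches. Every p-value below therefore rests on library-to-library spread, and some of that spread may be technical. No library without Stat3 overexpression was used.

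Sf3b1 is the scaffold of SF3b, which belongs to the U2 small nuclear ribonucleoprotein and clasps the branch point of an intron, and it is needed in every cell. Stat3 is the transcription factor downstream of gp130-family cytokine receptors, and it induces its own inhibitor, Socs3. The kdrl gene encodes a receptor for vascular endothelial growth factor, and at this age the endothelium of the dorsal aorta gives rise to the first blood stem cells.

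Counts summed to 6929996 to 8072777 per wildtype library and to 5161557 to 8059498 per sibling library. The row zgc:158463 took 21.7% to 22.1% of the counts in wildtypes and 22.1% to 27.0% in siblings. Levels are given in CPM, counts scaled to a common library size after TMM. On the log2 scale, Spearman correlations of CPM were 0.959 to 0.966 among the wildtypes, 0.931 to 0.962 among the siblings and 0.920 to 0.973 between the groups. Replicate 3 of the siblings stood apart on the first principal component, which held 36.9% of the variance. It had a score of 68.5, against -28.8 to -3.25 for the other 5 libraries. It was also the shallowest of the 6. Over 14918 genes with an average log2 CPM of at least 1, the median SD of log2 CPM was 0.303 among siblings and 0.246 among wildtypes. Medians of most gene lists are given with and without that library, while values of single genes are given with it.

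SF3B1 (ENSDARG00000056138) was measured first, since it defines the genotypes. It had 212, 199 and 206 CPM in wildtype replicates 1, 2 and 3, and 169, 157 and 177 CPM in sibling replicates 1, 2 and 3. All 3 siblings lay below all 3 wildtypes. The means were 205 ± 6.23 CPM in wildtypes and 168 ± 10.03 CPM in siblings (SD, 3 libraries each), and the sibling minus wildtype difference was -0.29 ± 0.13 (log2, SE), a ratio of 0.817. The 95% confidence interval of the difference was -0.585 to 0.00248. It was not called (edgeR BH-adjusted p = 0.806), and the exact two-sided permutation test gave p = 0.1, the smallest that 3 against 3 libraries allow. On a scale set over all 15 libraries, SF3B1 had 82.0 to 108 CPM in the 3 mutants with CA-Stat3, below all siblings.

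STAT3 (ENSDARG00000022712), for which endogenous and introduced transcripts were counted together if the construct matches the gene, had 355, 163 and 334 CPM in the wildtypes and 416, 225 and 350 CPM in the siblings. The groups overlapped, with a difference of 0.22 ± 0.31 that became -0.061 without replicate 2 of the wildtypes. The sorted gene kdrl (ENSDARG00000105215) had 530, 669 and 677 CPM in the wildtypes and 568, 537 and 339 CPM in the siblings. Its difference was -0.38 ± 0.21 (95% confidence interval -0.845 to 0.0893), with replicate 3 of the siblings lowest.

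**Figure D1:**
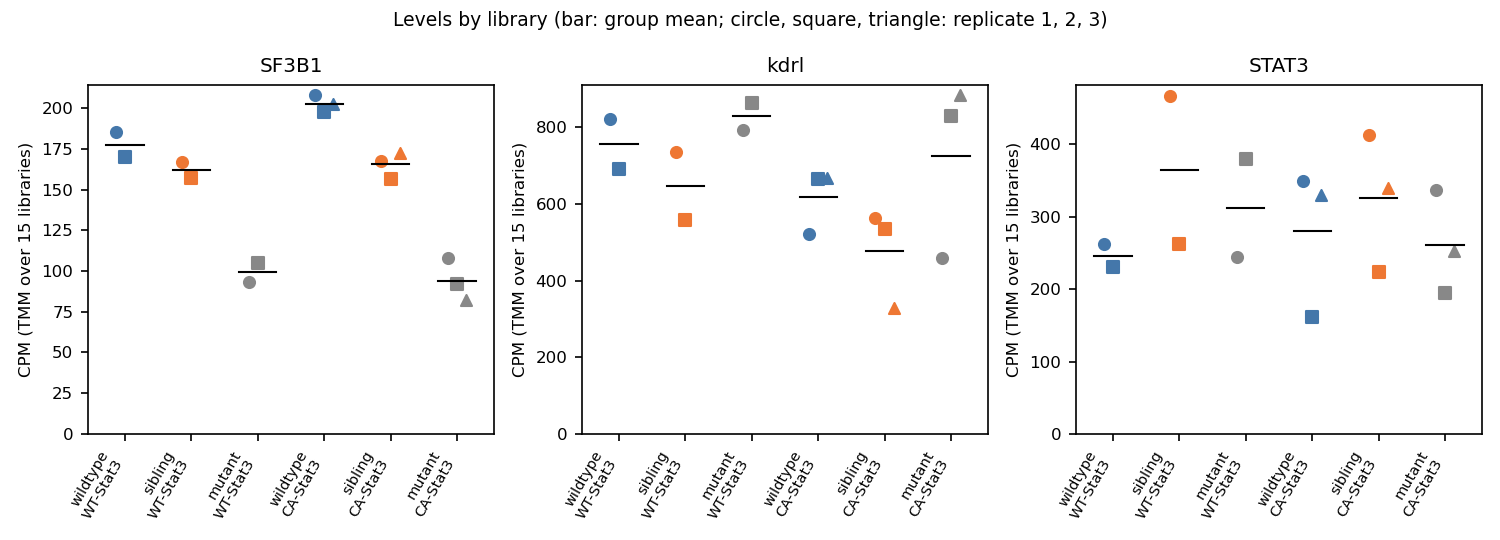
SF3B1, kdrl and STAT3 in CPM (y axis, from 0, scaled over 15 libraries) in every library of the 6 groups (x axis). Bars are group means and symbols mark replicates 1 to 3. With CA-Stat3, the 3 siblings lie between the 3 wildtypes and the 3 mutants for SF3B1, while STAT3 overlaps between all groups.

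No gene passed the test between siblings and wildtypes with CA-Stat3. Of 16004 genes tested, edgeR called 0 (0% called) at a BH-adjusted p under 0.05, and the smallest adjusted p was 0.806. DESeq2 and limma also called 0. At an unadjusted p under 0.05, edgeR had 902 genes (5.64%), of which 454 (2.84%) were higher and 448 (2.80%) lower in siblings. DESeq2 had 800 and limma had 839 such genes. With the replicate number as a block, which pairs sibling and wildtype libraries, 1502 genes had an unadjusted p under 0.05 and edgeR again called 0. The median difference over all genes was 0.0072, 95% of genes lay between -0.77 and 0.92, and 452 of them differed by over 1 on the log2 scale. For genes with an average log2 CPM of at least 1, the median SE of a difference was 0.27.

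Each direction is described next through the 12 genes of smallest p whose groups did not overlap. Over all genes, 6.10% had every sibling above every wildtype and 5.64% had every sibling below. Either way, 11.7% of genes did not overlap, beside a share of 0.1 of the 20 possible splits of 3 against 3 libraries. None of the 24 was called, and all had an edgeR BH-adjusted p of 0.806.

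Of the 12 genes that were higher in siblings, nes, PAX6, STMN1 and SOX2 belong to the list of neural genes. EBF2 (ENSDARG00000042525), a helix-loop-helix factor of neuronal differentiation and the gene of smallest p, had 27.5, 29.4 and 27.8 CPM in the wildtypes and 47.5, 54.5 and 49.97 CPM in the siblings. The difference was 0.84 ± 0.15, and selection by smallest p without overlap favours genes with tight, separated groups. The neural progenitor filament nestin (nes, ENSDARG00000088805) had 70.8, 57.3 and 60.4 CPM in the wildtypes and 100, 90.5 and 113 CPM in the siblings, a difference of 0.69 ± 0.16. PAX6 (ENSDARG00000103379), a regulator of eye and brain progenitors, had 31.7, 26.6 and 32.5 against 44.0, 50.9 and 68.3 CPM. SOX2 (ENSDARG00000070913), a factor that maintains neural stem cells, had 46.3, 35.4 and 38.3 against 64.0, 57.3 and 95.7 CPM. For PAX6 and SOX2, replicate 3 of the siblings was the highest library, and the differences were 0.84 ± 0.20 and 0.85 ± 0.22. The POU factor pou3f1 was at 0.87 ± 0.20, the protocadherin PCDH18 at 0.84 ± 0.21 and the microtubule regulator STMN1 (ENSDARG00000033655) at 0.88 ± 0.22. Another STMN1 entry (ENSDARG00000004169) had higher CPM and overlapped between the groups, at 0.19 ± 0.24. Another PAX6 entry (ENSDARG00000045936) also overlapped, at 0.55 ± 0.39. NAV2, a neuron navigator, was at 0.74 ± 0.19, the transcription factor ONECUT1 at 0.75 ± 0.19, NBEA, a neuronal trafficking protein, at 0.63 ± 0.16 and the axonal adhesion molecule NFASC at 0.76 ± 0.20. The F-box gene fbxo44.8 had the largest difference of the 12, 1.71 ± 0.44, from 11.2, 6.99 and 12.001 to 46.0, 12.5 and 40.2 CPM, with sibling replicate 2 close to the wildtypes. By smallest p alone, a gene known only by a clone name (0.81 ± 0.18) and 2 identifiers without a symbol, ENSDARG00000089684 (0.84 ± 0.18) and ENSDARG00000080300 (1.70 ± 0.39), also stood among the first genes in this direction.

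The 12 genes that were lower in siblings included regulators of signalling and adhesion. SIK1 (ENSDARG00000058606), a salt-inducible kinase transcribed in response to cyclic AMP, had 197, 303 and 186 CPM in the wildtypes and 110, 150 and 107 CPM in the siblings. The difference was -0.90 ± 0.22. PLK2 (ENSDARG00000090752), a stress-inducible polo-like kinase, had 54.8, 126 and 79.5 against 34.0, 49.3 and 34.3 CPM, a difference of -1.15 ± 0.30. NIBAN2 (ENSDARG00000062970), a protein of cell junctions, had 74.1, 83.3 and 78.8 against 49.2, 55.0 and 45.1 CPM, a difference of -0.66 ± 0.15. LMO7, a junctional actin-binding protein, was at -0.78 ± 0.18, and the natriuretic peptide receptor npr1a at -0.64 ± 0.16, from 123, 147 and 144 to 94.5, 96.7 and 74.6 CPM. TMTC2, an enzyme that adds mannose to cadherins, was at -0.80 ± 0.21 and ccdc136b at -1.03 ± 0.27. The adaptor gene lcp2b, whose mammalian counterpart acts in T cell receptor signalling, was at -1.59 ± 0.42. The gene fam83ga was at -1.51 ± 0.37, CCDC191 at -1.48 ± 0.38, rpz3 at -1.24 ± 0.33 and the elongation factor paralog eef1a1l3 at -1.01 ± 0.27. Of these, lcp2b, fam83ga, CCDC191 and rpz3 had at most 10.3 CPM in any of the 6 libraries. ENSDARG00000003132, without a symbol, was also among the first by p (-1.38 ± 0.34). Near-identical paralogs such as eef1a1l3 may share reads with other copies.

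**Figure D2:**
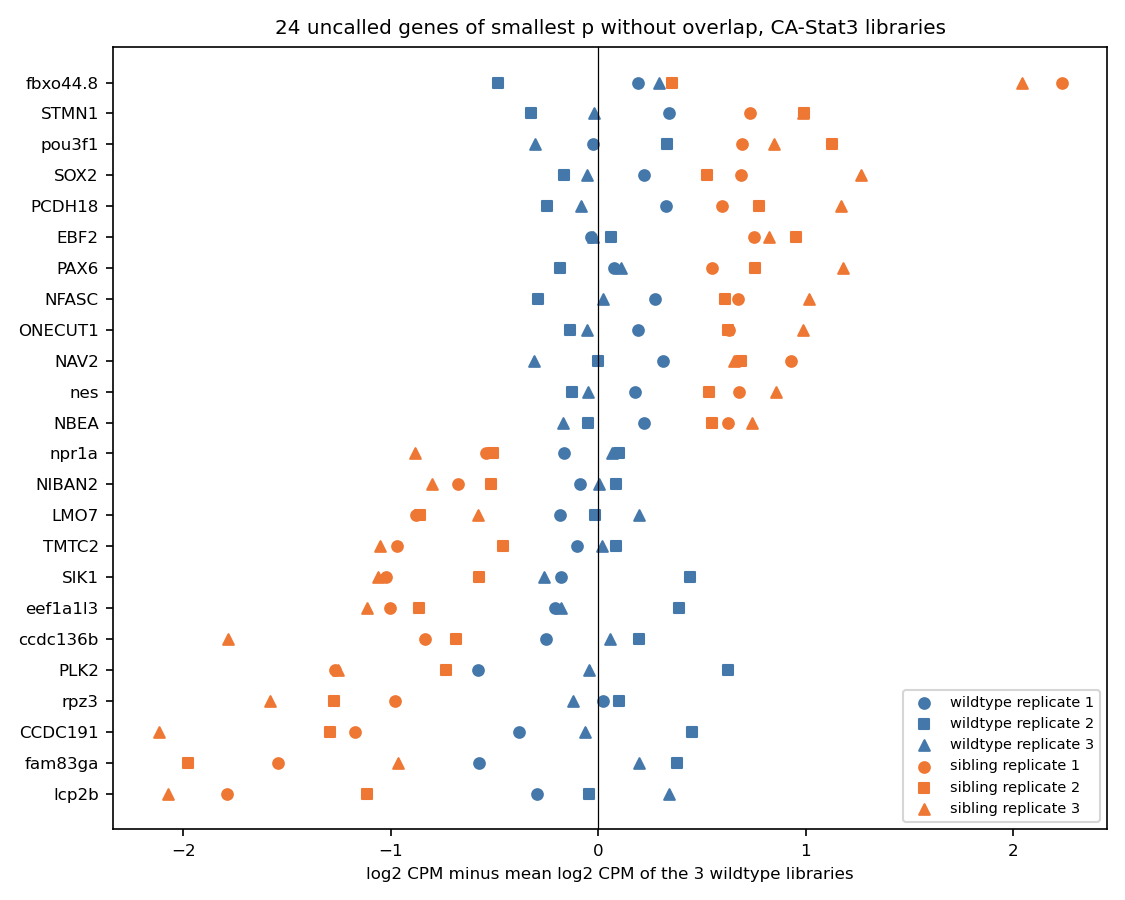
The 24 uncalled genes of smallest p without overlap (y axis), with log2 CPM of each CA-Stat3 library minus the wildtype mean (x axis). Blue symbols are wildtypes and orange ones siblings. EBF2 has the tightest groups, and the sibling replicates of fbxo44.8 spread widest among the higher genes.

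Gene lists were described by counts and medians from the fit across all genes. No member of any of the 24 lists was called. In bulk RNA, fewer cells of a type and less RNA per cell cannot be told apart. Endothelial genes were lower in siblings almost throughout the list. Of 29 pan-endothelial genes tested, 28 had a difference below 0, with a median of -0.39 beside 0.0072 over all genes. In 11 of the 29 (37.9%, against 5.64% of all genes) every sibling lay below every wildtype. In 1 gene, the tight junction claudin CLDN5 (ENSDARG00000043716) at 0.37 ± 0.17, every sibling lay above. Another CLDN5 entry (ENSDARG00000014059) had higher CPM and overlapped between the groups, at -0.31 ± 0.21. The adrenomedullin co-receptor ramp2 had 62.3, 59.9 and 71.3 CPM in the wildtypes and 46.0, 43.2 and 29.3 CPM in the siblings, a difference of -0.70 ± 0.20. Its partner receptor calcrla was at -0.59 ± 0.20. The angiopoietin receptor tek had 70.15, 108 and 90.5 against 60.4, 67.0 and 46.5 CPM, and the junction molecule ESAM had 102, 133 and 124 against 88.6, 92.1 and 58.3 CPM. For both, all siblings lay below all wildtypes, with sibling replicate 3 lowest. The VE-cadherin gene cdh5 had 793, 831 and 825 against 732, 672 and 437 CPM (-0.41 ± 0.19), and the transcription factor FLI1 had 371, 394 and 415 against 340, 336 and 221 CPM (-0.39 ± 0.18). The list mean of sibling minus wildtype was -0.09, -0.31 and -0.95 (log2) in replicates 1, 2 and 3, so replicate 1 differed little. There the receptor gene TIE1, whose groups overlapped, was higher in the sibling, at 372 against 318 CPM. Together the 29 genes summed to 5173 to 5744 CPM in the wildtypes and 2924 to 4980 CPM in the siblings. Without replicate 3 of the siblings, the median was -0.22, 26 of 29 were below 0 and 11 did not overlap, against 9.57% of all genes.

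Venous and scavenger endothelial genes, which line veins and take up waste from the blood, had the same direction. Of 15 tested, 14 were below 0, with a median of -0.44. In 6 every sibling lay below every wildtype (40.0%, against 5.64% of all genes). The hyaluronan scavenger receptor stab2 had 1338, 1775 and 1603 CPM in the wildtypes and 1104, 1278 and 806 CPM in the siblings, a difference of -0.57 ± 0.19. The lymphatic receptor lyve1b was at -0.47 ± 0.21, the VEGF-C receptor FLT4 at -0.47 ± 0.23, and the lymphatic regulator PROX1 at 0.09 ± 0.17. Their summed level was 4394 to 5460 CPM in wildtypes and 2737 to 4285 CPM in siblings. The median was -0.25 without sibling replicate 3.

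Arterial and Notch genes were mixed. Of 27 tested, 19 were below 0 (median -0.22). Every sibling lay below every wildtype in 4 (14.8%, against 5.64% of all genes) and above in 0. The Notch ligand dll4 had 90.7, 161 and 125 CPM in the wildtypes and 47.6, 93.2 and 44.1 CPM in the siblings. The highest sibling and the lowest wildtype overlapped, with a difference of -1.02 ± 0.31. The semaphorin and VEGF co-receptor NRP1 was at -0.39 ± 0.13, from 181, 206 and 205 to 152, 150 and 148 CPM. The mural cell receptor NOTCH3 was at 0.50 ± 0.20, and the arterial ligand EFNB2 (ENSDARG00000074050) at -0.30 ± 0.23. Another EFNB2 entry (ENSDARG00000020164) had higher CPM and was at -0.22 ± 0.15. Without sibling replicate 1 the median was -0.13.

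Haemogenic endothelium and blood stem cell regulators were also lower in siblings. Of 19 tested, 16 were below 0, with a median of -0.35. In 3 every sibling lay below every wildtype (15.8%, against 5.64% of all genes). RUNX3 had 27.5, 25.96 and 25.7 CPM in the wildtypes and 9.65, 19.997 and 13.8 CPM in the siblings, a difference of -0.87 ± 0.26. GATA2 (ENSDARG00000059327) had 53.0, 62.9 and 68.7 against 38.6, 51.8 and 30.1 CPM (-0.61 ± 0.22). Its paralog gata2b had too few counts to be tested, 22 in all wildtypes and 12 in all siblings. ERG, the third gene without overlap, was at -0.60 ± 0.25. Of the 19 genes, 5 are also in other lists. ERG, TAL1 and LMO2 are shared with the pan-endothelial list, and SPI1 and ptprc with the macrophage and neutrophil list. RUNX1, the master regulator of blood stem cell emergence, had 6.09, 3.56 and 5.06 against 2.72, 1.58 and 5.28 CPM. Its groups overlapped with sibling replicate 3 among the wildtypes, and its difference was -0.65 ± 0.45. The list's median was -0.59 without sibling replicate 2 and -0.23 without sibling replicate 3.

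**Figure D3:**
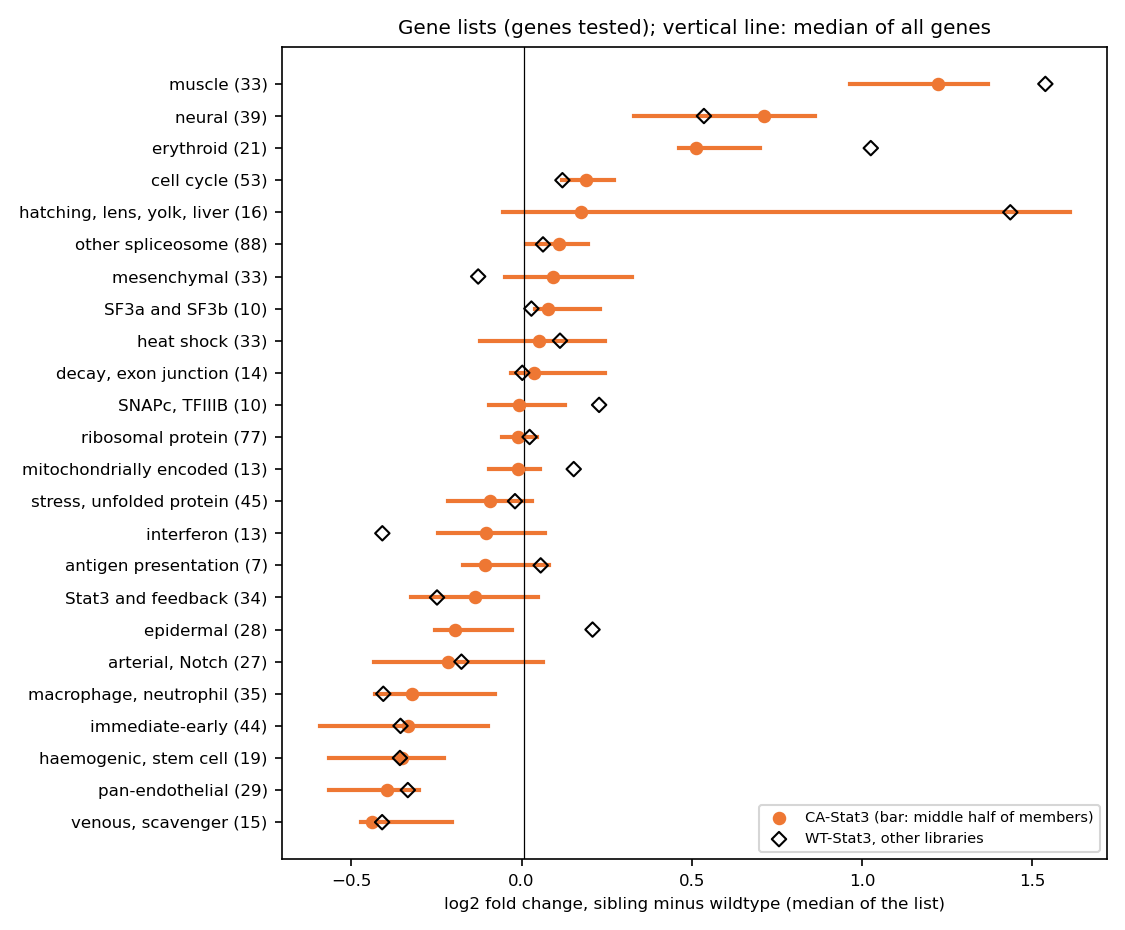
Median sibling minus wildtype log2 fold change (x axis) of 24 gene lists (y axis, genes tested in brackets) with CA-Stat3 (orange, bar over the members from the lower to the upper quartile) and in the separate WT-Stat3 libraries (diamonds). Endothelial lists lie left of the median of all genes and neural, erythroid and muscle lists lie right of it with both constructs. The CA-Stat3 muscle median was -0.34 without sibling replicate 3. With WT-Stat3, sibling replicate 2 had the highest muscle sum.

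Neural genes, markers of a cell type that a kdrl sort should leave out, were higher in siblings. Of 39 tested, 35 had a difference above 0 (median 0.71), and in 13 every sibling lay above every wildtype (33.3%, against 6.10% of all genes). In 0 of them was the order reversed. The neuronal RNA-binding protein ELAVL3 had 192, 102 and 106 CPM in the wildtypes and 257, 219 and 233 CPM in the siblings, a difference of 0.83 ± 0.24. The gene gap43 had 0 counts in all 6 libraries. The list mean was higher in the sibling by 0.04, 0.38 and 1.14 (log2) in replicates 1, 2 and 3, so replicate 1 differed little. The list as a whole summed to 803 to 998 CPM in wildtypes and 1132 to 1604 CPM in siblings, with sibling replicate 3 highest. Without that replicate the median was 0.23, 30 of 39 were above 0, and 13 still did not overlap, against 9.59% of all genes. The endothelial and neural lists thus differed in opposite directions in the same libraries. The part that neural cells or RNA played in the lower endothelial levels was not tested.

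Muscle genes were set by a single library. Of 33 tested, 31 were above 0 (median 1.22), but 0 had all siblings above all wildtypes. Their summed level was 1651 to 2567 CPM in wildtypes, 1603 and 2086 CPM in sibling replicates 1 and 2, and 12495 CPM in sibling replicate 3. The sarcomeric actin actc1b had 237, 356 and 363 CPM in wildtypes against 238, 322 and 1878 CPM in siblings, and the skeletal actin ACTA1 was at 1.196 ± 0.71. Without that library the muscle median was -0.34, and 30 of 33 genes were below 0.

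Erythroid genes overlapped between the groups, and their mean level was higher in the sibling within each replicate number. All 21 tested genes had a difference above 0, with a median of 0.51, and 0 lacked overlap. The embryonic beta globin hbbe3 had 343, 344 and 163 CPM in the wildtypes and 755, 455 and 190 CPM in the siblings (0.72 ± 0.45). The sibling was higher in each of the 3 replicate numbers, while replicate 3 was lowest in both genotypes. The transferrin receptor tfr1a had 99.96, 99.8 and 52.5 against 172, 126 and 78.2 CPM, and the haem synthesis enzyme FECH had 57.3, 59.3 and 36.6 against 96.1, 74.7 and 47.3 CPM. The list mean was higher in the sibling by 0.86, 0.17 and 0.38 (log2) in replicates 1, 2 and 3. With the replicate block, 13 of the 21 had an unadjusted edgeR p under 0.05 (4.12% of all genes were higher at that level) and 0 were called. Leaving out sibling replicate 1 brought the list median to 0.18, and leaving out wildtype replicate 3 to 0.32. Without sibling replicate 3 it was 0.84, with 15 of 22 genes above all wildtypes, against 9.59% of all genes. Single members departed from that order, such as the erythroid factor gata1a, with 16.4 CPM in wildtype and 12.95 CPM in sibling replicate 2. The globin hbae1.3 was at 0.77 ± 0.46. Globin paralogs can share reads. The erythroid sum was 966 to 2248 CPM in wildtypes and 1317 to 3902 CPM in siblings.

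Macrophage and neutrophil genes were lower in sibling replicates 1 and 3 and not in replicate 2. Of 35 tested, 27 were below 0 (median -0.32), and 1 had all siblings below (2.86%, against 5.64% of all genes). The granulocyte protease npsn had 579, 626 and 665 CPM in the wildtypes and 401, 720 and 285 CPM in the siblings. Lysozyme (lyz) had 606, 557 and 646 against 484, 619 and 216 CPM, a difference of -0.46 ± 0.31. The non-overlapping gene was the macrophage gene MFAP4 (ENSDARG00000090783), 1 of several paralogs, at -0.67 ± 0.25. Summed levels were 3536 to 3948 CPM in wildtypes and 1692 to 3998 CPM in siblings. Without sibling replicate 3 the median was -0.09, and without sibling replicate 2 it was -0.67 with 18 of 36 genes below all wildtypes, against 13.5% of all genes. With the replicate block, 11 of the 35 had an unadjusted edgeR p under 0.05 in the lower direction, against 5.26% of all genes.

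Among other tissues, epidermal genes had a median of -0.20 over 28 genes with krt4 at 0.00 ± 0.46, and mesenchymal genes one of 0.09 over 33 genes with col1a1a at 0.16 ± 0.33. Without sibling replicate 3 these medians were -0.48 and -0.08, so the mesenchymal one changed sign. Of 16 hatching gland, lens, yolk and liver genes, 11 were above 0 (median 0.17, and -0.03 without sibling replicate 3). The lipoprotein gene apobb.1, which the yolk layer and liver transcribe, had 3.55, 3.32 and 5.93 CPM in the wildtypes and 40.5, 3.597 and 77.6 CPM in the siblings. Sibling replicates 1 and 3 were far above all other libraries, and replicate 2 was at the wildtype level. The apolipoprotein apoa1b (15.1, 1.295 and 33.1 CPM in siblings) and the transferrin gene tfa (7.67, 0.863 and 9.55 CPM in siblings) followed the same order of libraries. The lysosomal gene CD63 was at -0.25 ± 0.21. Without sibling replicate 2, apobb.1 was the only gene called in any of the 6 fits that left out a library (3.80, edgeR BH-adjusted p = 0.0488).

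**Figure D4:**
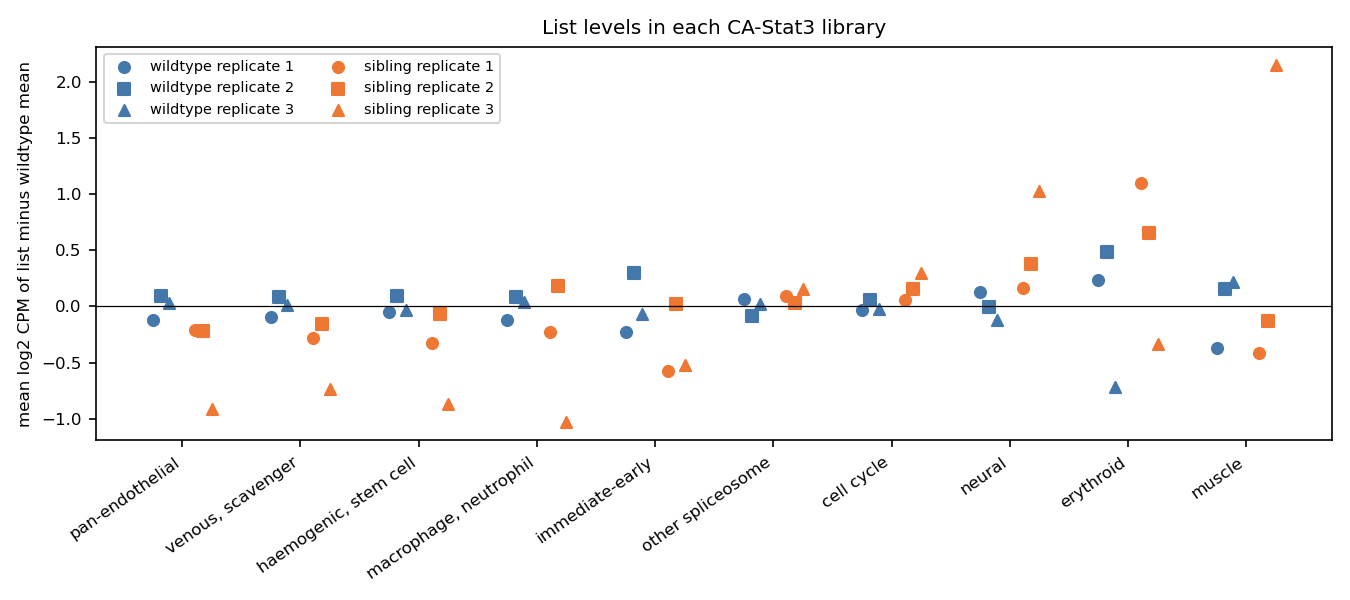
Mean log2 CPM of 10 gene lists (x axis) in each CA-Stat3 library minus the wildtype mean (y axis). Blue marks wildtypes, orange siblings, and symbols mark replicate numbers. Sibling replicate 3 lies 2.15 above the wildtype mean for muscle and 0.92 below it for pan-endothelial genes.

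Stat3 targets and immediate-early genes were tested because every library carried active Stat3. Of 34 genes of Stat3 and its feedback, 24 were below 0 (median -0.14). In 3 every sibling lay below every wildtype (8.82%, against 5.64% of all genes). The feedback inhibitor SOCS3 (ENSDARG00000026611) had 231, 263 and 280 CPM in the wildtypes and 164, 223 and 202 CPM in the siblings, a difference of -0.40 ± 0.16. The cytokine receptor il6r had 176, 157 and 144 against 79.7, 138 and 80.2 CPM (-0.68 ± 0.22), and the receptor lifra was at -0.41 ± 0.16. Without sibling replicate 2 the median was -0.22. The replicate block gave 9 of the 34 an unadjusted edgeR p under 0.05 in the lower direction, against 5.26% of all genes. Of 44 immediate-early genes, which respond within minutes to signals and to cell handling, 38 were below 0 (median -0.33). All siblings lay below all wildtypes in 8 (18.2%, against 5.64% of all genes) and above them in 0. SIK1 and ppp1r15a, a phosphatase subunit that restores translation, had the smallest p of the list, and the phosphatase gene DUSP2 had the largest difference, -1.59 ± 0.59 with overlap. The gene ppp1r15a had 242, 287 and 233 against 178, 185 and 126 CPM (-0.64 ± 0.18). The factor egr1 had 153, 598 and 198 against 94.9, 226 and 121 CPM, so that replicate 2 was highest in both genotypes and the groups overlapped (-1.10 ± 0.50). Without wildtype replicate 2 the median was -0.21. With the replicate block, 20 of the 44 had an unadjusted edgeR p under 0.05 in the lower direction, against 5.26% of all genes. Among them, 0 were called. The AP-1 gene fosaa was at 0.14 ± 0.40. Handling of the cells was not recorded in the labels, and its part in these values was not tested.

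Medians of the stress lists stayed closer to 0. Of 45 integrated stress and unfolded protein genes, 29 were below 0 (median -0.09, and -0.03 without sibling replicate 3), with the disulfide isomerase PDIA6 at -0.44 ± 0.17 and the stress factor gene atf4b at 0.06 ± 0.17. Of 33 heat-shock genes, 21 were above 0 (median 0.05), and 5 had all siblings above (15.2%, against 6.10% of all genes). With the replicate block, 4 of the 33 had an unadjusted edgeR p under 0.05 in the higher and 7 in the lower direction. The shares over all genes were 4.12% and 5.26%. Leaving out sibling replicate 2 put 9 genes above and 7 below all wildtypes, against 12.9% and 13.5% of all genes. The chaperone HSPA4L was among these 5, at 1.02 ± 0.435. The small heat-shock protein HSPB1, whose groups overlapped, was at 0.73 ± 0.24 and hsp70.1 at -0.47 ± 0.36. Heat-shock members ranged from dnajb1b at -0.76 ± 0.45 to hsp90aa1.1 at 1.11 ± 0.58, which was highest in sibling replicate 3. The chaperone hsp70l had 1007, 2309 and 875 CPM in the wildtypes and 597, 1456 and 573 CPM in the siblings (-0.67 ± 0.44). For dnajb1b and hsp70l the groups overlapped, and the sibling was lower in every replicate number. Of 13 interferon and RNA-sensing genes the median was -0.11, with DHX58 at -0.17 ± 0.49, and of 7 antigen presentation genes it was -0.11, with mhc1zba at -0.11 ± 0.31. Both lists had 0 genes without overlap. Without sibling replicate 3 the interferon median was 0.0042 and the antigen presentation median -0.021, and without wildtype replicate 1 the latter was 0.14.

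Splicing genes were slightly higher in siblings. Of 88 spliceosome components outside SF3a and SF3b, 67 were above 0, with a median of 0.11. In 10 every sibling lay above every wildtype (11.4%, against 6.10% of all genes), and in 0 every sibling lay below. SNRNP200, the helicase that unwinds U4 from U6, had 215, 232 and 218 CPM in the wildtypes and 255, 259 and 298 CPM in the siblings (0.29 ± 0.14). Its regulator EFTUD2 had 68.9, 56.3 and 63.6 against 85.0, 71.8 and 89.8 CPM (0.38 ± 0.16). PRPF8, the core of the catalytic centre, was at 0.21 ± 0.16 with overlap. Among the 10 SF3a and SF3b subunits, 8 were above 0 and 2 below, with a median of 0.08, and of 0.12 without sibling replicate 3. SF3B1 was the 1 subunit with all siblings below all wildtypes, and SF3B3, the propeller protein bound to Sf3b1, was the 1 subunit with all siblings above. SF3B3 had 132, 119 and 126 against 151, 152 and 183 CPM (0.36 ± 0.14). The summed level of the 10 subunits was 751 to 852 CPM in wildtypes and 826 to 878 CPM in siblings. Without sibling replicate 3, the median of the 88 components was 0.06, and 12 lay above all wildtypes, against 9.59% of all genes.

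Related RNA machinery showed small differences. Of 14 nonsense-mediated decay and exon junction genes, 9 were above 0 (median 0.04, and 0.09 without sibling replicate 3), with EIF4A3, the exon junction helicase, at 0.32 ± 0.15 and UPF1, the decay helicase, at -0.01 ± 0.13. Of 10 SNAPc and TFIIIB genes, which start transcription of small nuclear RNAs and transfer RNAs, 5 were above and 5 below 0 (median -0.01, and 0.10 without sibling replicate 3), with snapc1b at 0.15 ± 0.30. Cell cycle genes were higher in siblings, with 47 of 53 above 0 and a median of 0.19. In 12 all siblings lay above all wildtypes (22.6%, against 6.10% of all genes). The condensin subunit NCAPG had 94.8, 88.0 and 81.4 CPM in the wildtypes and 118, 122 and 117 CPM in the siblings (0.44 ± 0.14). PCNA, the replication clamp, had 154, 154 and 190 against 168, 207 and 260 CPM and overlapped (0.35 ± 0.19). The median was 0.13 without sibling replicate 3. The 77 ribosomal protein genes had a median of -0.01 and a range of -0.17 to 0.24, and the median was 0.03 without sibling replicate 3. The 13 mitochondrially encoded genes had a median of -0.01, with MT-ND1 at -0.14 ± 0.21, and a median of -0.13 with 11 of 13 below 0 when that library was left out.

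The same genotypes were compared in libraries that the CA-Stat3 comparison did not use, 2 siblings and 2 wildtypes with WT-Stat3. In a fit of the 10 sibling and wildtype libraries, edgeR called 0 of 17597 genes (0% called), with 864 at an unadjusted p under 0.05 (4.91%). Of the 902 genes at an unadjusted p under 0.05 with CA-Stat3, 799 (88.6%) had the same direction with WT-Stat3, as did 66.2% of all 16004 genes. Across those genes, which are not independent replicates, Pearson's r between both differences was 0.432 and Spearman's rho was 0.426. The relation leaned on replicate 2 of the WT-Stat3 siblings, without which r was 0.141 and the shares were 79.0% and 60.5%. Leaving out either wildtype with WT-Stat3 gave shares of 84.5% and 83.0% in place of 88.6%. Replicate 2 of the WT-Stat3 siblings also had the highest muscle sum of the 4, 5148 CPM against 249 to 884 CPM in the other 3 on the 15-library scale. The muscle median with WT-Stat3 was 1.54 with that library included. Of the 24 genes named above, 23 kept their direction, the exception being rpz3.

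SIK1 was at -1.04 with WT-Stat3, PLK2 at -1.08, NIBAN2 at -0.55, EBF2 at 0.46, PAX6 at 0.67 and SOX2 at 0.56. SF3B1 had 193 and 178 CPM in those wildtypes and 172 and 160 CPM in those siblings, again without overlap, and its difference was -0.16 ± 0.15. Pan-endothelial genes had a median of -0.33 there (27 of 29 below 0), venous genes -0.41 (15 of 15 below 0), immediate-early genes -0.36 (40 of 44 below 0), neural genes 0.54 (33 of 39 above 0) and erythroid genes 1.03 (21 of 21 above 0). The spliceosome median was 0.06, with 60 of 88 above 0. Haemogenic genes had a median of -0.36, with 13 of 19 below 0. Several lists had a median of the opposite sign from that with CA-Stat3. These were epidermal (0.21), mesenchymal (-0.13), SNAPc and TFIIIB (0.23), mitochondrially encoded (0.15), antigen presentation (0.06) and ribosomal protein genes (0.02). Values by library are not given here for most lists. The neural value rested on sibling replicate 2, whose mean log2 CPM over the list was 3.65 (scaled over 15 libraries), while sibling replicate 1 was at 2.98, between the wildtypes at 3.02 and 2.74. The interaction of genotype with construct tested whether the sibling difference depended on the form of Stat3. EdgeR called 0 of 17597 genes (0% called), with 248 at an unadjusted p under 0.05 (1.41%) and a smallest adjusted p of 0.9999. For SF3B1 the interaction was -0.14 ± 0.19.

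**Figure D5:**
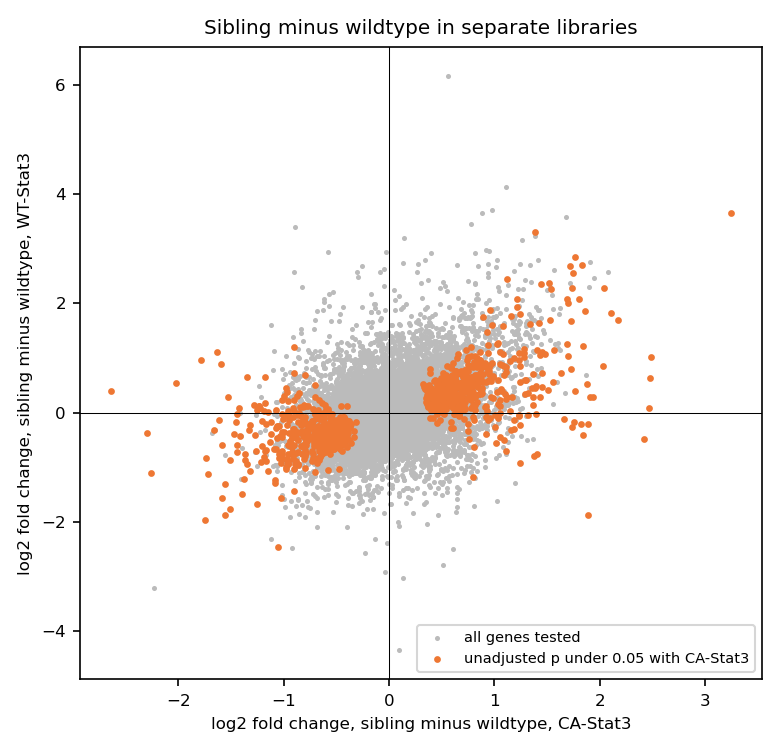
Sibling minus wildtype log2 fold change with CA-Stat3 (x axis) and with WT-Stat3 (y axis), which share no library. Grey points are all 16004 genes tested with CA-Stat3 and orange points the 902 with an unadjusted p under 0.05, of which 88.6% lie in the quadrants of equal sign.

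Mutants gave a reference for the size of the sibling differences. Genes called between mutants and wildtypes with WT-Stat3 were taken from those 4 libraries alone, none of which enters the CA-Stat3 comparison. Replicate 2 of these mutants stood apart. It had 3625121 counts, 39.5% of them in zgc:158463, and 18512 genes with a count. Replicate 1 had 4537227 counts, 23.4% in that row, and 21839 genes. The mutant values below rest on both. EdgeR called 549 genes higher (3.68%) and 412 lower (2.76%) in mutants. In the CA-Stat3 siblings, 514 of the 549 were tested and 379 of them (73.7%) lay above the wildtypes on average, with a median of 0.12 beside a mutant median of 1.68. Of the 412 lower genes, 322 (78.2%) were below 0 in siblings, with a median of -0.26 beside a mutant median of -1.70. Genes not called in mutants had a sibling median of -0.00066, with 49.9% above 0. Non-overlap in the mutant direction was seen in 43 of the 514 (8.37%, against 6.10% of all genes) and in 46 of the 412 (11.2%, against 5.64%). By library, the 514 genes averaged 0.18, 0.05 and 0.15 above the wildtype mean in sibling replicates 1, 2 and 3, and the wildtypes were at 0.06, -0.00082 and -0.06, so that sibling replicate 2 lay within the range of the 3 wildtypes. The 412 genes averaged -0.27, 0.0046 and -0.49 in the siblings and -0.09, 0.08 and 0.02 in the wildtypes, with sibling replicate 2 again within that range. The medians were 0.09 and -0.13 without sibling replicate 3. Within replicate numbers, the sibling was above its wildtype for the higher genes and below it for the lower genes in all 3 pairs.

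Single genes that are strongly altered in mutants, taken after their values were seen from those with the smallest p, are given with both values as a description. PRPF31, a tri-snRNP assembly factor, differed by 3.16 ± 0.26 in mutants with WT-Stat3. It had 32.0, 28.4 and 28.5 CPM in the CA-Stat3 wildtypes and 31.4, 30.2 and 31.3 CPM in the siblings, a difference of 0.06 with a 95% confidence interval of -0.286 to 0.414. The snRNA gene initiation subunit snapc4, at 3.73 ± 0.25 in mutants, had 21.3, 17.9 and 15.2 against 27.2, 19.7 and 23.4 CPM, a difference of 0.37 (interval -0.0986 to 0.838). The chaperone HSPA8 (ENSDARG00000037403), at 3.94 ± 0.33 in mutants, had 9.64, 7.11 and 4.48 against 12.4, 10.6 and 8.94 CPM, a difference of 0.59 (interval -0.0992 to 1.28). Another, far more abundant HSPA8 entry (ENSDARG00000068992) had 2482, 2492 and 2453 against 2513, 2798 and 2838 CPM (0.13 ± 0.12). The little elongation complex gene ice1, at 3.90 ± 0.26, was at 0.27 in siblings (interval -0.302 to 0.834). Among lower genes, COL1A1 (ENSDARG00000035809), a fibrillar collagen at -2.21 ± 0.27 in mutants, was at -0.02 in siblings (interval -0.681 to 0.634). SOCS3 was at -1.96 ± 0.23 in mutants and -0.40 in siblings (interval -0.756 to -0.0365), and the scavenger receptor MRC1 at -2.10 ± 0.28 and -0.54 (interval -1.05 to -0.0229).

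Beside the mutants with CA-Stat3, which share the wildtype libraries with the sibling comparison, the leading sibling genes had the following values in the fit of 15 libraries. The mutant minus wildtype value of SF3B1 was -1.11 and its sibling minus wildtype value -0.29. EBF2 was at -0.75 in mutants and 0.84 in siblings, pou3f1 at -1.20 and 0.87, SOX2 at -0.68 and 0.85, and PCDH18 at -0.90 and 0.84. ONECUT1 was at -0.69 in mutants and 0.75 in siblings, while fbxo44.8 was higher in both, at 1.345 and 1.71. The other 6 of the 12 higher genes had mutant values between -0.37 and -0.09. SIK1 was at -0.38 in mutants and -0.90 in siblings, LMO7 at -0.94 and -0.78, and TMTC2 at -1.13 and -0.80. The other 9 of the 12 lower genes had mutant values between -0.89 and 0.16.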

How the data were processed

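The authors deposited a table of raw whole-number counts, with a row for each Ensembl gene and a column for each library. The submitters' processing notes list GRCz10 as build, and featureCounts, STAR 2.4.2a, Trim Galore, DESeq2 and Picard as tools, without saying what each did. How strand, duplicates and multi-mapping reads were treated, and from which annotation release, is not stated in the sources used here, so values of paralogs and of overlapping or antisense genes are uncertain. Symbols came from the gene name table, which covered 26269 of 32105 identifiers. Totals of the 6 libraries were 5161557 to 8072777 counts, and intervals cover the modelled spread between libraries only. Chi-square values of counts showed no pair of libraries deposited more than once.

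Counts of the 6 CA-Stat3 sibling and wildtype libraries were fitted with edgeR 4.0.16 in R 4.3.3 (filterByExpr by group, minimum count 10, minimum total 15; TMM; quasi-likelihood test, 1 coefficient per group; Benjamini-Hochberg (BH) adjustment over all genes; threshold 0.05, a gene under it being called). The fit was run on simulated counts with known changes put in, and how many of these it called is not reported here. Standard errors were obtained by dividing the size of each log2 fold change by the root of its F statistic. A prior count of 2 was added for log2 CPM. Overlap of groups was read from CPM. The rule for naming genes took STAT3, SF3B1 and kdrl, the 12 per direction with the smallest p among genes without overlap, an average log2 CPM of at least 1 and a symbol that is no clone or predicted locus (since fewer were called), the 5 per direction of smallest p, and the first tested member of each list, 1 of which is not reported here. Other list members and mutant genes were picked after their values were seen. Members, lists and comparisons were chosen with earlier results of these data known. Replicate numbers come from the titles. Deviations from the group means of same-numbered sibling and wildtype libraries correlated at 0.246, 0.305 and 0.101. The numbers were therefore taken to pair the libraries in the replicate block. The labels do not say that same-numbered libraries belong together, and the correlations come from the libraries that the block was applied to. Counts from the block are therefore descriptive. The main fit left this pairing out, as do its standard errors, intervals and p-values. Alternatives were RLE size factors, DESeq2 1.42.0, limma 3.58.1 (voom with quality weights), other filters, 15 or 10 libraries in the fit, a replicate block, removal of the 3 rows with most counts, and removal of each library in turn. RefSeq's gene order on GRCz12tu gave the neighbours of sf3b1.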

Additional observations from a re-analysis of the deposited data

How the results depend on the processing

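Of 962 alternative values, 946 were labelled the same, 15 moved and 1 reversed. Medians were labelled the same within the spread between libraries, and counts within 1.5 times. The same-direction share was labelled the same within its binomial confidence interval. A single gene was labelled the same if it kept its sign and stayed uncalled, however far its value moved. The 962 values include list medians, which have no test, so that a change of sign in them is not counted as reversed. Without sibling replicate 3, the medians of muscle, mesenchymal, hatching gland, lens, yolk and liver, interferon, SNAPc and TFIIIB, and ribosomal protein genes changed sign. The reversed value among single genes was STAT3, which ranged from -0.0605 without replicate 2 of the wildtypes to 0.442 without replicate 2 of the siblings. EdgeR, DESeq2 and limma called 0 genes, as did RLE, no filter, the stricter filter, 10 or 15 libraries, the replicate block and the fit without the 3 most abundant rows. Leaving out 1 library gave 0 to 1 called genes, also counted within the lists, the 1 being apobb.1. Genes at an unadjusted p under 0.05 numbered 1511 with no filter, 1502 with the replicate block, and 467 to 1568 without 1 library. With no filter, edgeR called 1 gene between WT-Stat3 siblings and wildtypes. Defining the mutant genes without replicate 2 of the WT-Stat3 mutants, chosen after seeing the data, gave medians of 0.08 and -0.19 for higher and lower genes. Without sibling replicate 1, all siblings lay above all wildtypes in 22 of 38 neural genes and below them in 18 of 29 pan-endothelial genes, against 12% and 12.1% of all genes. Without sibling replicate 3, the muscle and neural medians were -0.34 and 0.23. The same-direction share of 88.6% became 84.5%, 83.0% and 79.0% without wildtype replicate 1, wildtype replicate 2 and sibling replicate 2 with WT-Stat3. The replicate block changed no call. The causes of these shifts were not tested.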

Other observations

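Genes that neighbour sf3b1 were described because a chromosome region is inherited with the mutated gene. RefSeq's gene order (assembly GRCz12tu, matched by unique symbols for 11183 tested genes) gave the 50 nearest tested genes on each side, and edgeR called 0 of these 100. In 7 every sibling lay above every wildtype and in 7 every sibling lay below (14.0% in all, against 11.7% of all genes), and the median difference was 0.01. The smallest unadjusted edgeR p was 0.0119, for the coagulation factor gene f5 at -0.60. The direct neighbours COQ10B and ANKRD44 were at 0.14 and -0.24.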
